A study of Mus musculus with 6 samples.

Results

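Sarcomere genes encode the contractile unit of striated muscle, and 41 of 45 listed genes could be followed among the 19057 genes measured here. Each was read from the deposited signal table through probes that carry exactly 1 gene symbol, and where a gene had several, its brightest probe by mean signal stood for it. Tnnt2, Mybph, Trim55 and Xirp1 had no such probe and were not analysed here. RNA came from CD-1 mice, an outbred stock with no engineered allele or treatment named, at embryonic day 13.5, and was hybridised to Illumina bead arrays of 1 colour. There were 3 libraries titled tooth germ (lower molar) and 3 titled oral tissue, each pooled over several embryos. The design pairs both tissues from the same embryos, so the 6 libraries form 3 litters.

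The identity of the 2 tissues is not settled by the labels. The 3 libraries whose titles and descriptions say tooth germ carry source name and tissue entries for mandibular tissue that is neither tooth nor bone. The other 3 carry such entries for the molar bud. Groups are named here by title, and the sign of every difference below turns if the other fields are right. In the libraries titled tooth germ, 3 of 6 dental mesenchyme genes rose (Inhba, Msx1 and Lhx6) and 0 fell, and 4 of 6 epithelial genes rose and 0 fell (limma, adjusted p under 0.05). Among all genes measured 2.39% were called higher and 3.42% lower. Not called were the dental genes Barx1 (0.35), Lhx8 (0.30) and Pax9 (0.14) and the epithelial genes Cdh1 (0.10) and Epcam (-0.02), given as log2 differences. The call of Lhx6 (adjusted p = 0.0404) was lost in 8 of 17 alternatives and that of Krt5, an epithelial keratin, in 5 of 17. With litter as a block 4 dental mesenchyme genes rose, with Barx1 added (adjusted p = 0.0139). The largest of these rises were log2 differences of 1.98 for Inhba, the activin subunit of the dental mesenchyme, and 2.05 for Krt17, a keratin of ectodermal appendages.

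In a sarcomere, thin filaments of actin carry tropomyosin and the calcium-sensing troponin complex, and thick filaments of myosin pull on them. Z-discs anchor the thin filaments, the M-band joins the thick ones, and the giant protein titin spans between both. Most parts exist as isoforms named for fast, slow or cardiac muscle, and skeletal muscle of an embryo makes several at once. The muscles of the mouse jaw and tongue lie beside the developing teeth and are differentiating around this stage.

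Sarcomere genes were lower in the libraries titled tooth germ than in those titled oral tissue. Of 41 genes 28 fell, 0 rose and 13 were not called. Among all genes measured 3.42% were called lower and 2.39% called higher. The median log2 difference of the 41 genes was -1.30, against 0.0026 over all genes tested. A log2 difference of -1 or lower was reached by 23 of the 41 genes and by 0.504% of all genes. All 3 tooth germ values lay below all 3 oral tissue values for 31 of the 41 genes, as they did for 11.2% of all genes. Of the 10 largest falls among all genes, 7 were sarcomere genes, and of the 50 largest falls 21 were. The list was chosen with earlier results of these data known, so these counts and ranks describe it and do not test it. With litter as a block 30 sarcomere genes fell and 0 rose, and the share of all genes called lower was 5.02%. That block also moved the number of genes called higher over the whole table to 736, against 456 without it. In whole-tissue RNA, fewer muscle cells and less RNA per muscle cell cannot be told apart.

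**Figure D1:**
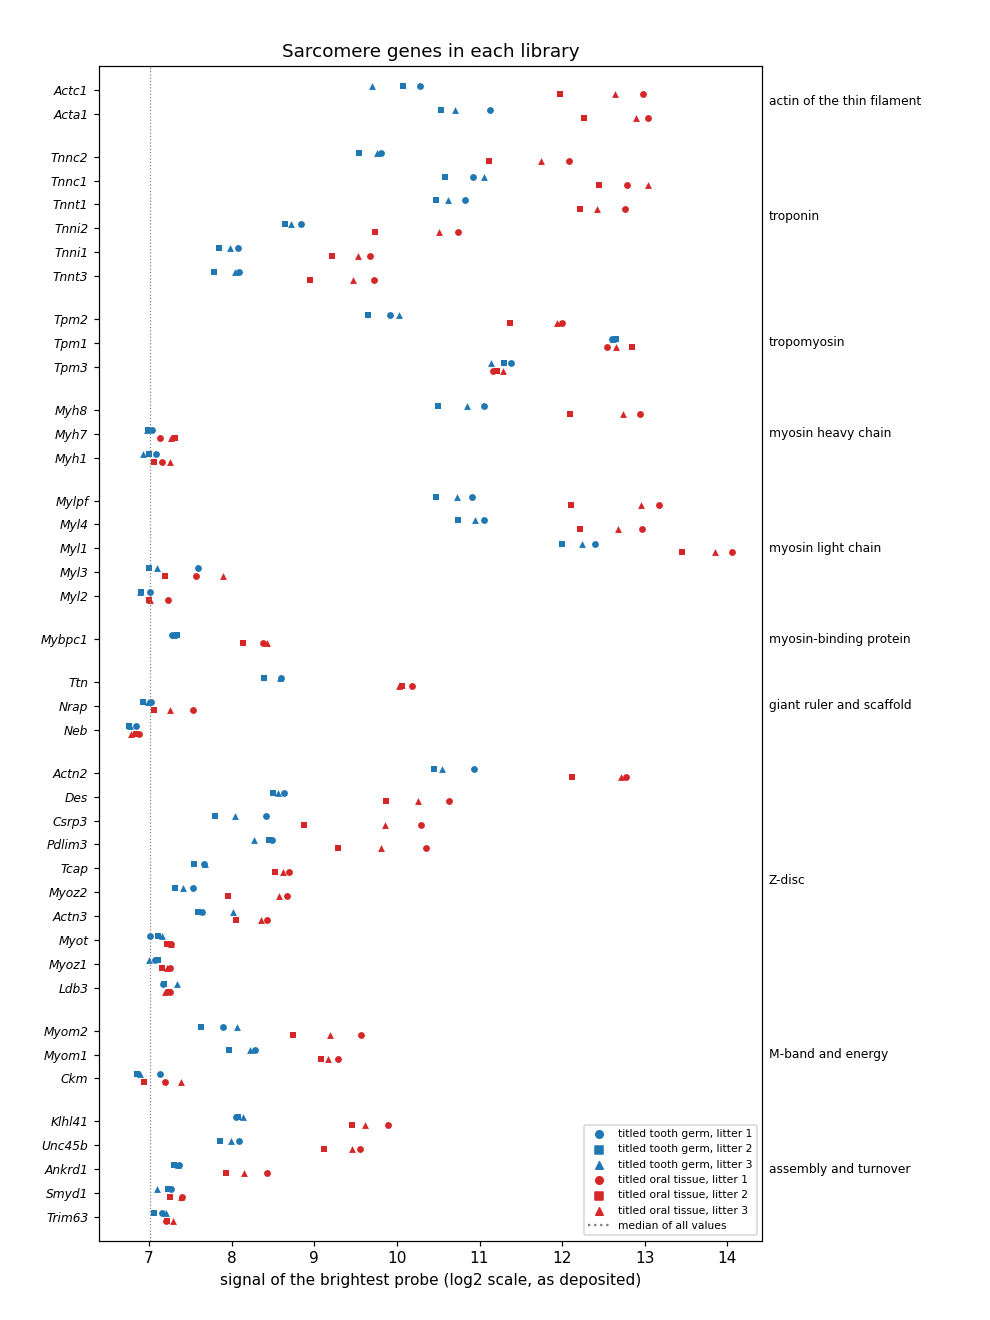
Signal of each of the 41 sarcomere genes in each library (log2 scale, horizontal axis), grouped by role, with titled tooth germ drawn above titled oral tissue and a marker shape for each litter; points are single libraries. For 31 genes the 3 tooth germ points lie left of all oral tissue points, while those of Tpm1 and Tpm3 overlap at high signal.

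Upstream sequences are shown for 5 genes chosen from those that fell. These are both sarcomeric actins, the fast light chain Mylpf and the fast and slow troponin C genes. The sequences are RefSeq's for GRCm38.p6, 250 bases before the annotated start, written 5′ to 3′ on the strand of the gene. Capitals mark matches on either strand to a GC-centred E-box (CAGCTG, a form bound by myogenic factors of the MyoD family), a CArG box (bound by serum response factor), a MEF2 box or an MCAT element (CATTCC, bound by TEAD factors). The windows are chr2:114052876-114053125, minus strand for Actc1, chr8:123894776-123895025, minus strand for Acta1, chr7:127211358-127211607, plus strand for Mylpf, chr2:164779735-164779984, minus strand for Tnnc2 and chr14:31208062-31208311, plus strand for Tnnc1.
Actc1: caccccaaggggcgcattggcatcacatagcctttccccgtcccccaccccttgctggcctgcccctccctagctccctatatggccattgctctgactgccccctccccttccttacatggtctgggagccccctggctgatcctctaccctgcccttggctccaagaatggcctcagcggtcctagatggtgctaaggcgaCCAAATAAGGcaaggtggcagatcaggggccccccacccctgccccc
Acta1: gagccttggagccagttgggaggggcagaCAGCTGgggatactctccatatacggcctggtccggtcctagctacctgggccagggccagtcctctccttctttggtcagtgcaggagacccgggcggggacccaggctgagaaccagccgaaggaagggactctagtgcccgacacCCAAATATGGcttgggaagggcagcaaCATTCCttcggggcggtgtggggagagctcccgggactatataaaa
Mylpf: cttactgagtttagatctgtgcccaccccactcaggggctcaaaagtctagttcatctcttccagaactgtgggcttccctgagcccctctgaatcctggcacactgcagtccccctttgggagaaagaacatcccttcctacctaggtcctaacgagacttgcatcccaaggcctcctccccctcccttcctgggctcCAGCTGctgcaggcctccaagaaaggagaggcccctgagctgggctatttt
Tnnc2: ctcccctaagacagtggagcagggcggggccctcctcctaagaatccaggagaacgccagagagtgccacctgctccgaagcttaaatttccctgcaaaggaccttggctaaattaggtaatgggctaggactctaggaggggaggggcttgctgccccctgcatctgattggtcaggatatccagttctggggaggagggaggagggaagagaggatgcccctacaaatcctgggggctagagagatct
Tnnc1: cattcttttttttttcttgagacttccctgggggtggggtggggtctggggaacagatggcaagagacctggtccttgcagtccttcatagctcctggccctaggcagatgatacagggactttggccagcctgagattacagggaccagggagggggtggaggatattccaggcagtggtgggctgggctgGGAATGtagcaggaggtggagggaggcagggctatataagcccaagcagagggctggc

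Both actin windows hold a CArG box, 47 to 38 bases before the start in Actc1 and 73 to 64 bases before it in Acta1. The GC-centred E-box stands 51 to 46 bases before the start of Mylpf and 221 to 216 bases before that of Acta1. An MCAT match lies 46 to 41 bases upstream in Acta1 and 58 to 53 bases upstream in Tnnc1, where it is read on the other strand. The Tnnc2 window holds none of these letters.

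Of the 41 genes 33 had a RefSeq window, 39 windows in all because 6 genes have several starts. Among 26 windows of genes that fell, 11 (42.3%) held the GC-centred E-box, against 5 of 13 windows (38.5%) of genes that were not called and 13.0% of all 32851 windows. The general E-box CANNTG, which includes the GC-centred form, was found in 24 of the 26 windows (92.3%), in 9 of the 13 (69.2%) and in 66.2% of all. A CArG box was found in 3 windows of genes that fell (11.5%) and 3 of genes not called (23.1%), against 1.47% of all. For the MEF2 box these were 4 windows (15.4%), 1 window (7.69%) and 2.92%, and for the MCAT element 6 windows (23.1%), 4 windows (30.8%) and 12.6%. These matches are a description of the letters in these windows, several windows share a gene, and no factor was measured at them.

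Both sarcomeric actins of the thin filament fell. Actc1, named for the heart but also made by embryonic skeletal muscle, had signals of 10.28, 10.07 and 9.70 in tooth germ and 12.98, 11.98 and 12.64 in oral tissue. The groups stood far apart, at -2.52 on the log2 scale (SE 0.21, adjusted p = 3.67e-05). It was the largest fall of all 19057 genes. If the deposited scale is plain log2, which is not known, the signal was 5.72-fold higher in oral tissue. A dimmer Actc1 probe fell by 2.19. Acta1, the main actin of mature skeletal muscle, read 11.13, 10.54 and 10.71 in tooth germ and 13.04, 12.27 and 12.90 in oral tissue, a difference of -1.94 (SE 0.19, adjusted p = 7.71e-05). In each tissue the library of litter 2 was the lowest for Acta1, and for Actc1 that held in oral tissue only. Probe sequences were not used here, so cross-hybridisation between these near-identical actins was not tested.

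All 6 troponin genes fell, with a median log2 difference of -1.71. Tnnc2, the calcium-binding troponin C of fast muscle, had signals of 9.81, 9.54 and 9.76 in tooth germ and 12.08, 11.11 and 11.74 in oral tissue (difference -1.94, SE 0.19, adjusted p = 8.15e-05). Tnnc1, the troponin C of slow muscle and heart, read 10.92, 10.59 and 11.05 in tooth germ and 12.78, 12.45 and 13.04 in oral tissue (-1.90, SE 0.15, adjusted p = 2.24e-05). The falls of both troponin C genes thus differed by 0.04. Tnnt1, which ties troponin to tropomyosin in slow fibres, stood at 10.64 ± 0.18 in tooth germ and 12.47 ± 0.27 in oral tissue (SD, n = 3), a difference of -1.82. Its fast relative Tnnt3 stood at 7.97 ± 0.16 in tooth germ and 9.38 ± 0.40 in oral tissue, a difference of -1.41. The inhibitory subunits Tnni2 (fast) and Tnni1 (slow) had differences of -1.60 and -1.501 and both fell, and their oral tissue values spread unequally, at 10.74, 9.74 and 10.51 for Tnni2 and 9.67, 9.22 and 9.52 for Tnni1.

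The tropomyosins, which lie along actin and block myosin sites, did not move together. Tpm2 fell by 1.90 at its brightest probe, with 9.91, 9.65 and 10.03 in tooth germ and 11.99, 11.37 and 11.93 in oral tissue (SE 0.15, adjusted p = 2.61e-05). Tpm1 read 12.61, 12.65 and 12.62 in tooth germ and 12.54, 12.84 and 12.66 in oral tissue, and the groups overlapped (difference -0.06, 95% interval -0.23 to 0.12, adjusted p = 0.804). Tpm3 read 11.38, 11.30 and 11.14 in tooth germ and 11.16, 11.21 and 11.29 in oral tissue, again with overlap (0.05, interval -0.13 to 0.24, adjusted p = 0.828). Both genes also make tropomyosins of non-muscle cells from other promoters and exons, and the table does not say which transcripts a probe reads. Their signs were not stable, since Tpm1 differed by 0.025 without oral tissue library 2 and Tpm3 by -0.027 when its probes were averaged. The other Tpm2 probes differed by -0.28 (not called) and -0.27 (called), and no probe of Tpm1 or Tpm3 was called.

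Among the myosin light chains 3 of 5 genes fell. Mylpf, the regulatory light chain of fast fibres, had signals of 10.90, 10.47 and 10.72 in tooth germ and 13.17, 12.11 and 12.96 in oral tissue, a difference of -2.05 (SE 0.22, adjusted p = 1.37e-04), the second-ranked fall in the table. Its other probe fell by 1.99. Myl1, the essential light chain of fast fibres, read 12.40, 11.999 and 12.24 in tooth germ and 14.06, 13.45 and 13.85 in oral tissue (-1.58, SE 0.14). Myl4, the light chain of embryonic muscle and the atrium, read 11.05, 10.74 and 10.95 in tooth germ and 12.97, 12.21 and 12.68 in oral tissue (-1.71, SE 0.16). For all 3 genes the groups stood apart and litter 2 was the lowest in each tissue. The slow and ventricular light chains Myl2 and Myl3 were not called, and their groups overlapped. Myl2 stood at 6.93 ± 0.069 in tooth germ and 7.08 ± 0.13 in oral tissue (-0.14, adjusted p = 0.235), and the blocked fit gave an adjusted p = 0.0362. Myl3 stood at 7.23 ± 0.32 in tooth germ and 7.55 ± 0.36 in oral tissue (-0.32, interval -0.69 to 0.05, adjusted p = 0.382).

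Of the myosin heavy chains, the motors of the thick filament, Myh8 carried the large difference. Myh8, the perinatal form, read 11.05, 10.50 and 10.85 in tooth germ and 12.94, 12.09 and 12.74 in oral tissue (-1.79, SE 0.19, adjusted p = 1.52e-04), and its dimmer probes fell by 1.60 and 1.53. Myh7, the heavy chain of slow fibres and heart, fell by 0.24 near the median of all values (7.03, 6.98 and 6.97 in tooth germ and 7.13, 7.32 and 7.27 in oral tissue). Its adjusted p = 0.0146 did not hold in 6 of 17 alternatives. The dimmer Myh7 probes differed by -0.015 and 0.080 and were not called. Myh1, an adult fast form, read 7.08, 6.99 and 6.93 in tooth germ and 7.16, 7.07 and 7.26 in oral tissue, with overlap (-0.16, adjusted p = 0.134). Mybpc1, the slow form of myosin-binding protein C, stood at 7.31 ± 0.034 in tooth germ and 8.32 ± 0.15 in oral tissue (-1.01, SE 0.08, adjusted p = 2.61e-05).

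Titin had the smallest adjusted p among the sarcomere genes. Ttn read 8.60, 8.39 and 8.58 in tooth germ and 10.18, 10.06 and 10.02 in oral tissue (-1.56, SE 0.09, adjusted p = 4.79e-06), and its oral tissue values spread less than those of the actins. Of its 12 probes 4 fell and 0 rose, and the probe next in brightness fell by 0.96. Nrap, which anchors actin while myofibrils form, read 7.03, 6.92 and 6.98 in tooth germ and 7.54, 7.06 and 7.25 in oral tissue (-0.31, adjusted p = 0.0833), where the blocked fit gave an adjusted p = 0.00708. The groups of Nrap did not overlap. Neb, the ruler of thin filament length, stood below the median of all values at 6.79 ± 0.049 in tooth germ and 6.84 ± 0.050 in oral tissue, where its probe showed no called difference (-0.04, adjusted p = 0.55).

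At the Z-disc 7 of 10 genes fell. Actn2, the alpha-actinin that crosslinks actin in all muscle fibres, read 10.93, 10.45 and 10.54 in tooth germ and 12.77, 12.12 and 12.72 in oral tissue (-1.89, SE 0.16, adjusted p = 4.09e-05). Actn3, its relative of fast fibres, read 7.64, 7.59 and 8.02 in tooth germ and 8.43, 8.05 and 8.36 in oral tissue (-0.53, SE 0.12, adjusted p = 0.0271). The closest values of the Actn3 groups nearly touched, and the call was lost in 8 of 17 alternatives. The dimmer Actn3 probes differed by -0.30 and -0.17 and were not called. Des, the intermediate filament that links neighbouring Z-discs, stood at 8.56 ± 0.064 in tooth germ and 10.25 ± 0.38 in oral tissue (-1.69). Csrp3, the muscle LIM protein, had the widest spread within oral tissue, with 8.41, 7.80 and 8.04 in tooth germ and 10.29, 8.88 and 9.85 in oral tissue (-1.59, SE 0.28, adjusted p = 0.00469, and adjusted p = 0.0851 without litter 3). Its call was also lost in limma without trend (adjusted p = 0.0554) and under robust shrinkage (adjusted p = 0.172). Pdlim3, which binds alpha-actinin, fell by 1.41. Tcap, which caps titin, and Myoz2, the calsarcin of slow fibres and heart, both fell by 0.98. Myot, Myoz1 and Ldb3, all with mean signals between the median and the upper quartile of all values, had differences of -0.16, -0.15 and 0.00 and were not called. A dimmer probe of Ldb3 fell by 0.16 (adjusted p = 0.0496 over all probes), and 4 others were not called.

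At the M-band Myom2 fell by 1.30 and Myom1, myomesin, fell by 1.02, with adjusted p-values of 7.78e-04 and 5.93e-05. Ckm, the muscle creatine kinase, read 7.14, 6.85 and 6.89 in tooth germ and 7.19, 6.94 and 7.39 in oral tissue, and the groups overlapped (-0.21, adjusted p = 0.297, and adjusted p = 0.0461 without oral tissue library 2). Among genes of assembly and turnover 3 of 5 fell. Klhl41, a kelch protein that stabilises thin filaments, read 8.06, 8.07 and 8.14 in tooth germ and 9.89, 9.45 and 9.61 in oral tissue (-1.56, SE 0.10, adjusted p = 1.42e-05). Unc45b, the chaperone that folds myosin, read 8.09, 7.86 and 7.997 in tooth germ and 9.56, 9.11 and 9.45 in oral tissue (-1.39, SE 0.11). Ankrd1, an ankyrin-repeat protein best known from stressed heart, fell by 0.83 (7.34 ± 0.027 in tooth germ and 8.17 ± 0.25 in oral tissue). Smyd1, a methyltransferase of myofibril assembly, and Trim63, a ubiquitin ligase of muscle breakdown, had differences of -0.15 and -0.09 and were not called.

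**Figure D2:**
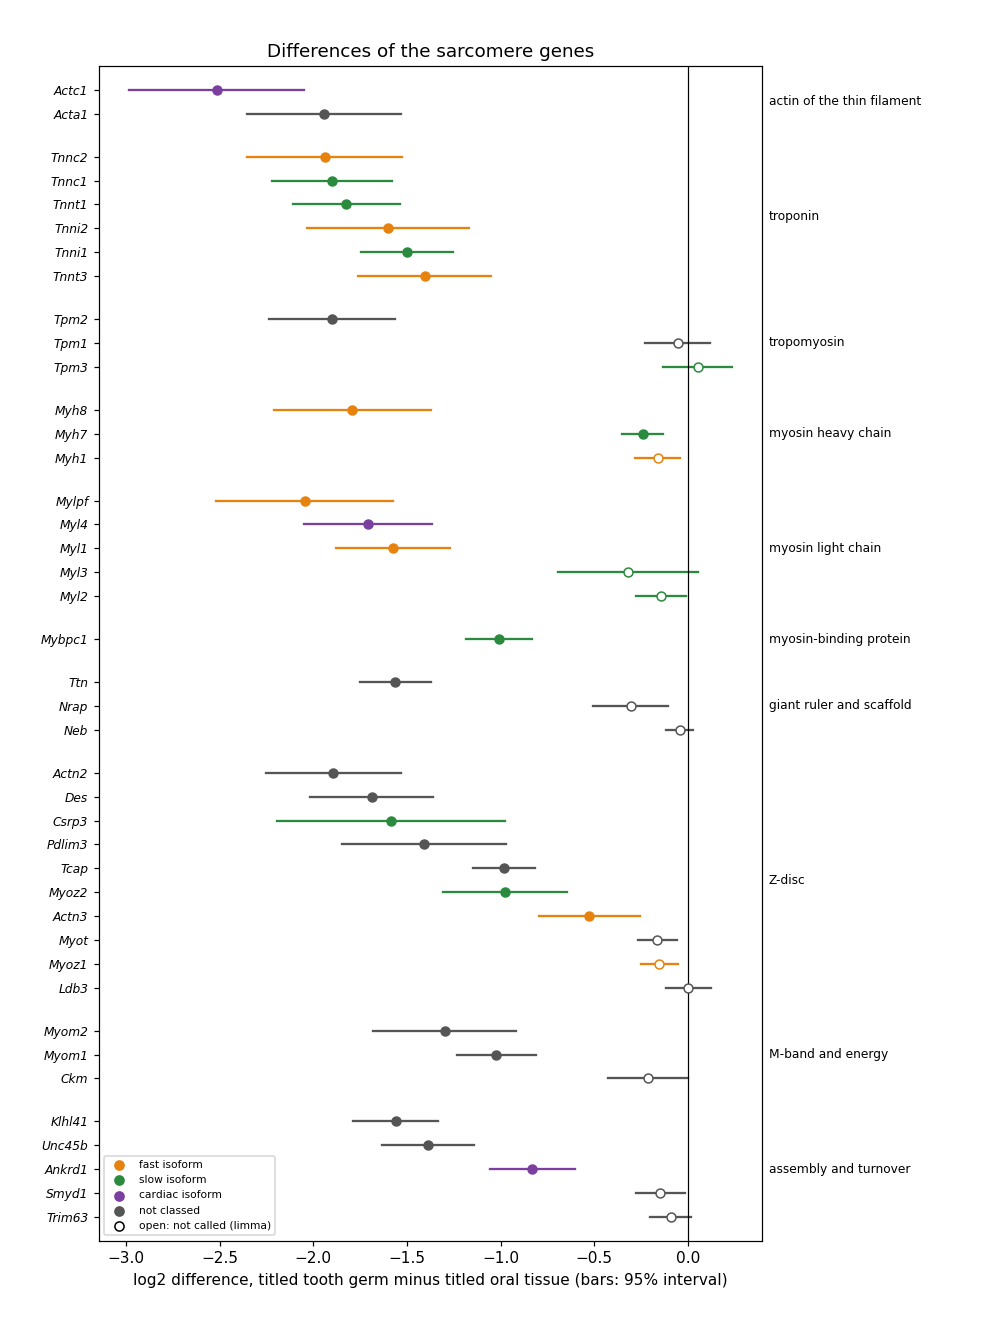
Log2 difference, titled tooth germ minus titled oral tissue, with its 95% interval for each of the 41 genes, coloured by isoform class; filled points were called by limma. Actc1 lies farthest to the left at -2.52, and Tpm1, Tpm3 and Ldb3 lie at -0.06, 0.05 and 0.00.

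Probes of the same gene did not all give the same difference. Of 26 genes with several probes, 10 fell at every probe and 9 fell at the brightest probe but had another that was not called. Ldb3 was the gene whose brightest probe was not called while another probe fell, and no probe of any sarcomere gene was called higher. Tpm1 and Tpm3 differed little at high signal, while Neb, Myl2, Myh1 and Ckm differed little at probes near the median of all values (7.01). The mean signal over the 6 arrays holds the oral tissue values that also make the difference, and no relation between the difference and the signal is read from it.

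**Figure D3:**
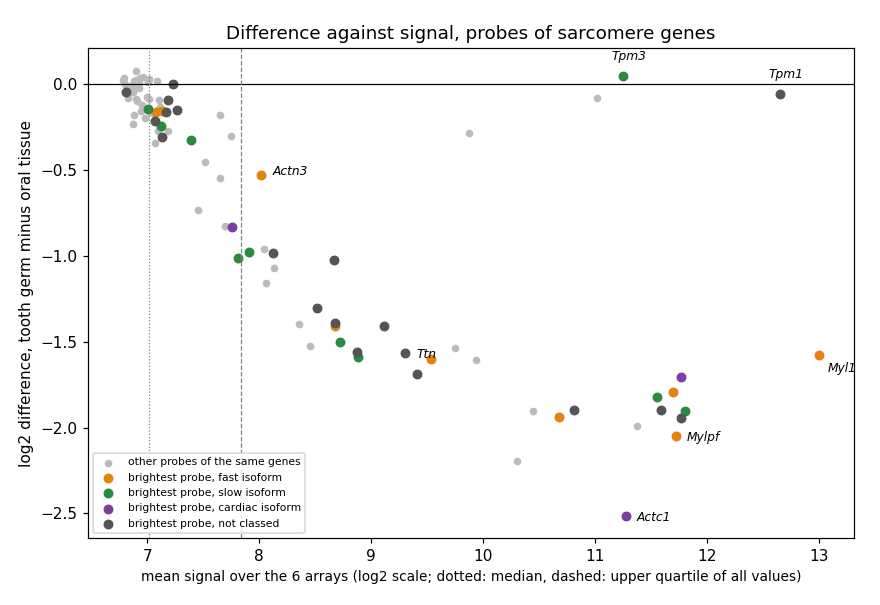
Log2 difference (vertical axis) against mean signal over the 6 arrays (horizontal axis, log2 scale) for the brightest probe of each sarcomere gene, coloured by isoform class, and in grey for the other probes of the same genes. Tpm1 lies at -0.06 and Tpm3 at 0.05, both at high signal; the horizontal axis includes the oral tissue values that also enter the difference.

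The isoform classes asked whether fast and slow genes differ in their shift. Of 9 fast genes 7 fell (median -1.58), of 10 slow genes 7 fell (median -0.99) and all 3 cardiac genes measured fell (median -1.71). No member of any class rose. Without trend or under robust shrinkage the count of slow genes that fell was 5. Genes with a mean signal below the upper quartile of all values were then left out. Tpm3 passed that filter (mean 11.25, difference 0.05) and was left out as well. The median was -1.60 for 7 fast, -1.59 for 5 slow and -2.11 for 2 cardiac genes. That mean signal holds the oral tissue values that also make the difference, so the filter keeps genes partly by their fall. Among those kept, Actn3 and Myoz2 had tooth germ means of 7.75 and 7.42, under that quartile (7.84). Nothing is therefore read from the closeness of the fast and slow medians. These medians describe the lists and were not tested against each other.

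Related genes were compared within each array in 11 pairs. In 9 pairs a fast gene was set against a slow or cardiac one, and in the other two, Acta1 over Actc1 and Actn3 over Actn2, 1 partner belongs to no class. The logarithm of the ratio was formed in each library and its mean compared between the tissues. The test was a two-sided exact permutation over the 6 libraries, which cannot go below p = 0.1 with 3 against 3. It exchanged libraries freely and did not use the pairing by litter. For 8 of the 11 pairs the groups did not overlap, with the smallest possible p of 0.1 and an adjusted p of 0.14 over the 11 pairs. For troponin C, Tnnc2 over Tnnc1, the log ratio was -1.11, -1.04 and -1.30 in tooth germ and -0.70, -1.34 and -1.30 in oral tissue, a change of -0.04 (exact p = 1). For troponin I, Tnni2 over Tnni1, it was 0.76, 0.79 and 0.74 in tooth germ and 1.07, 0.52 and 0.99 in oral tissue (change -0.10, exact p = 0.6). In both pairs the tooth germ values sat inside the oral tissue range, and the mean change had no stable sign. With libraries or litters left out it lay between -0.20 and 0.17 for troponin C, turning without oral tissue library 1, tooth germ library 3 or litter 1. For troponin I it lay between -0.28 and 0.0060, turning without oral tissue library 1 or litter 1.

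Troponin T and actin ratios did stand apart. Tnnt3 over Tnnt1 was -2.74, -2.69 and -2.58 in tooth germ and -3.03, -3.27 and -2.95 in oral tissue (change 0.42). Acta1 over Actc1 was 0.85, 0.47 and 1.011 in tooth germ and 0.06, 0.29 and 0.26 in oral tissue, so that Actc1 fell by more than Acta1 (change 0.57). Myl1 over Myl4 changed by 0.13, but by -0.60 when the probes of each gene were averaged. The ratios Actn3 over Actn2 and Myoz1 over Myoz2 changed by 1.37 and 0.83, and Mylpf over Myl2, Myh8 over Myh7 and Myl1 over Myl3 by -1.90, -1.55 and -1.25. In these pairs the gene with the smaller shift was fast for Actn3 and Myoz1 and slow for Myl2, Myh7 and Myl3. All of them except Actn3 had a mean below the upper quartile of all values (7.84). The mean of Actn3 was 8.02, with 7.75 in tooth germ and 8.28 in oral tissue. Myh1 over Myh7 changed by 0.08 with overlapping groups (exact p = 0.6).

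Litter 2 had the lowest sarcomere signal in both tissues. Among the 28 genes that fell, tooth germ library 2 was the lowest of its group for 23 genes (82.1%) and oral tissue library 2 for 26 (92.9%), against 35.05% and 32.4% of all genes. The median gap of library 2 to the mean of libraries 1 and 3 over these 28 genes was -0.24 in tooth germ and -0.58 in oral tissue, against -0.0041 and 7.33e-04 over all genes. In oral tissue this gap had a median of -0.74 for the 7 fast genes that fell, -0.38 for the 7 slow genes and -0.61 for the 3 cardiac genes. It was widest for Csrp3 (-1.20), Mylpf (-0.95) and Tnni2 (-0.89), and it was -0.46 for Tnnc1, -0.04 for Ttn and 0.12 for Myh7. Within-litter differences had their smallest median in litter 2. The median over the 41 genes was -1.46, -1.07 and -1.16 in litters 1, 2 and 3, and over the fast genes it was -1.66, -1.16 and -1.62. All 28 genes that fell had the same sign in all 3 litters, as 7880 of 19057 genes did. For the 28 genes this follows from their groups not overlapping. Without oral tissue library 2 the median of the 41 genes was -1.51.

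**Figure D4:**
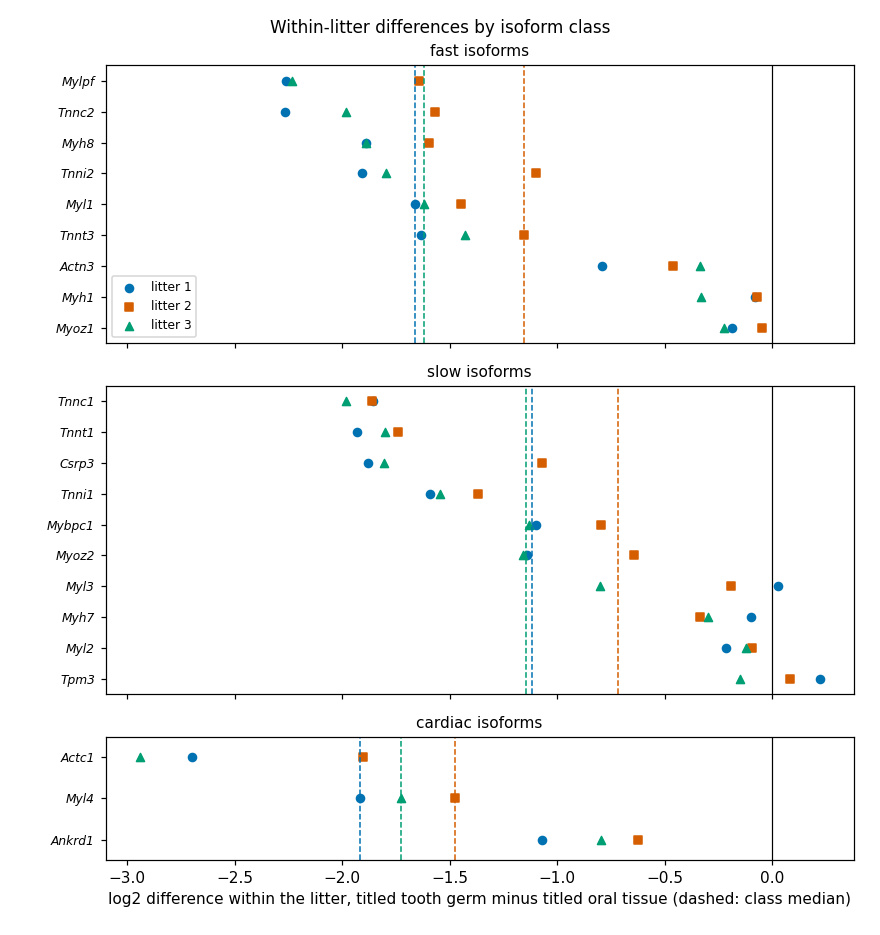
Within-litter log2 differences, titled tooth germ minus titled oral tissue, for 9 fast, 10 slow and 3 cardiac genes, with a marker for each litter and a dashed line at each litter's class median. In the fast class the median of litter 2 lies at -1.16, to the right of -1.66 and -1.62 in litters 1 and 3.

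A smaller share of the other sarcomere genes fell. Both lists were chosen with earlier results of these data known, so nothing is read from that contrast. Of 34 measured of 40 listed, 11 fell, 0 rose and 23 were not called (median -0.10), and 22 of them stayed below the upper quartile of all values in every library. Myom3, another myomesin, read 7.96, 7.74 and 8.06 in tooth germ and 9.59, 9.08 and 9.55 in oral tissue (-1.49, SE 0.13, adjusted p = 4.37e-05). The muscle phosphoglycerate mutase Pgam2 fell by 1.34 and the actin crosslinker Flnc by 1.17. Klhl40, a kelch protein that protects leiomodin, fell by 0.71, and Lmod3, the leiomodin that nucleates skeletal thin filaments, fell by 0.62. Both calls were lost without litter 3. Synpo2l, a Z-disc protein, fell by 0.67, Klhl31 by 0.56 and Ankrd2 by 0.55. Ankrd2 missed the threshold in 5 of 17 alternatives. The blocked fit called 13 of these genes lower, adding the muscle enolase Eno3 (adjusted p = 0.00261) and Fhl1, a LIM protein (adjusted p = 0.0353).

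The relatives of sarcomere proteins that all cells make did not share the fall. Of 10 non-muscle actin, myosin, tropomyosin, alpha-actinin and actin-capping genes 0 fell, 1 rose and 9 were not called, with a median difference of 0.12. In the blocked fit 3 of these genes rose and 0 fell, adding Actn1 (adjusted p = 0.0195) and Tpm4 (adjusted p = 0.0347). The gene that rose was Tmod3, a widely made cap of actin filaments (0.41, SE 0.10, adjusted p = 0.0333, lost in 8 of 17 alternatives). Actb, cytoplasmic actin, read 14.45, 14.26 and 14.34 in tooth germ and 14.18, 14.17 and 14.20 in oral tissue (0.16, adjusted p = 0.158), and the groups did not overlap.

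Smooth muscle genes moved both ways. Of 10 genes 2 fell, 1 rose and 7 were not called (median -0.12). Acta2, the smooth muscle actin, which embryonic skeletal muscle also makes, read 12.22, 12.23 and 12.16 in tooth germ and 13.89, 13.40 and 13.78 in oral tissue (-1.49, SE 0.11, adjusted p = 1.56e-05). Myh11, the smooth muscle heavy chain, fell by 0.21 and Mylk, a kinase of myosin light chains, rose by 0.40, and each call was lost in 5 of 17 alternatives. The blocked fit called 3 genes lower, adding the enteric actin Actg2 (adjusted p = 0.0478). The mean signal of the list was 8.44 to 8.55 in tooth germ and 8.64 to 8.76 in oral tissue, and its part in the sarcomere difference was not tested.

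Heart genes stayed near the floor of the arrays. Of 10 genes 1 fell, 0 rose and 9 were not called (median -0.0045), 6 averaged under the median of all values, and 9 stayed below the upper quartile in every library. The mean signal of the list was 6.93 to 6.96 in tooth germ and 6.96 to 7.11 in oral tissue. Nppa and Nppb, the natriuretic peptides, stood at 6.85 to 6.90 and 6.81 to 6.89 over all libraries. Myh6, the atrial heavy chain, fell by 0.20 (adjusted p = 0.0449, lost in 11 of 17 alternatives), and the blocked fit also called Hand2, a factor of heart and jaw, lower (adjusted p = 0.00639). The exception in level was Nkx2-5, a homeobox gene of the heart and some pharyngeal tissue, which read 6.98, 6.94 and 6.95 in tooth germ and 7.89, 7.13 and 6.99 in oral tissue (-0.38, adjusted p = 0.278), without overlap, and is named after its values were seen.

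Muscle regulators and connective tissue genes were called lower in part. Of 10 muscle regulators 6 fell, 0 rose and 4 were not called (median -0.34). Msc, a helix-loop-helix factor of the arch muscle lineage, fell by 1.95. Myog, which drives myocytes to differentiate, fell by 1.54, and Myod1, the muscle determination factor, fell by 1.47. Pax7, Pax3 and Myf5, of muscle precursors, stood below the median of all values and had differences of -0.05, 0.02 and -0.05. Of 8 tendon and connective tissue genes 4 fell, 0 rose and 4 were not called (median -0.43), led by Dpt (-1.30), Kera (-1.28) and Col14a1 (-0.97). Mkx (0.15), Lum (0.12) and Tnmd (0.01) had differences above 0 and were not called. In the blocked fit the tendon factor Scx was also called lower (adjusted p = 0.0447). The mean signal of that list was 8.95 to 9.09 in tooth germ and 9.44 to 9.61 in oral tissue, and library 2 was the highest of each group for it, unlike for the sarcomere genes. The part of these cells in the sarcomere result was not tested.

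**Figure D5:**
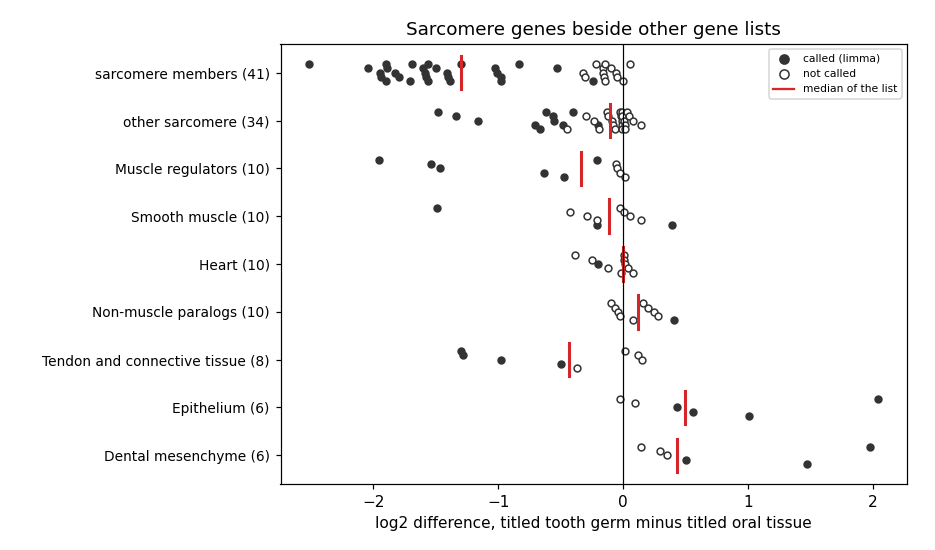
Log2 difference, titled tooth germ minus titled oral tissue, of each measured gene in 9 lists (number of genes in parentheses); filled points were called by limma and the red line is the median of the list. The sarcomere median lies at -1.30, the non-muscle paralogs at 0.12 and the heart genes at -0.0045.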

How the data were processed

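The deposited table gives log2-scale signals per probe for 6 arrays. Per the submitters' processing notes, the authors used lumi 2.8.0, and its transformation and background correction are not given in the sources used here, so plain log2 and a variance-stabilised scale cannot be told apart. Sorted columns differed by at most 8.27e-04, and the deposited values were thus already quantile normalized, so they were not scaled again. No detection p-values entered the work. Of 45281 probes 34885 had 1 gene symbol in the platform annotation, and the brightest per gene gave 19057 genes. All 41 symbols matched RefSeq (GRCm38.p6).

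Differences were fitted in limma 3.58.1 under R 4.3.3 (lmFit, eBayes with a mean-variance trend, 4 residual degrees of freedom), with Benjamini-Hochberg adjustment over 19057 genes and calls at an adjusted p under 0.05. The code was tested on simulated data. Errors of differences are moderated standard errors, and the number of arrays limits the precision. Paralog pairs were tested with exact permutation in Python 3.11.15, without the pairing by litter.

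The labels say that libraries of the same number share a litter. Deviations from the group means correlated at 0.41, 0.23 and 0.27 for same-numbered libraries over 9528 genes and between -0.27 and -0.07 for others. Each gene's deviations cancel out within a tissue, so positive values for same-numbered libraries in part force negative ones for the others. Values with litter as a block are given where they change a call.

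The members, lists and classes were chosen with earlier results of these data known. By rule, all measured members were named, with the 8 largest called differences of the other sarcomere genes and up to 3 called genes of each further list. Genes of these lists outside that rule, such as Krt5 and those called only with the block, were named after their values were seen. Alternatives were litter as a fixed or random block, repeated quantile normalization, median centring, averaging a gene's probes, removal of dim probes, eBayes without trend or with robust shrinkage, and leaving out each library or litter.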

Additional observations from a re-analysis of the deposited data

How the results depend on the processing

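The count of sarcomere genes that fell was 28, and it was 24 under robust shrinkage, 25 without trend, 26 with a gene's probes averaged, 30 with either block and 26 to 30 with a library or litter left out. Over all genes, leaving out a library or litter gave 354 to 663 genes called lower and 195 to 368 called higher, and litter as a replicate block gave 736 called higher. The median of the sarcomere genes lay between -1.51 and -1.10 in those fits. Averaging a gene's probes, which mixes dim probes in, gave -0.72, with -0.52 for the slow, -0.897 for the cardiac and -0.063 for the other sarcomere genes. The other sarcomere genes had a median of -0.35 with dim probes removed, which left 22 of 34 genes, and 11 of them fell, against 6 to 11 with libraries or litters left out (6 without litter 3), 8 without trend and 13 with the replicate block. Actn3, Myh7, Csrp3, Myoz2 and Pdlim3 lost their call in at least 1 alternative, Myoz2 and Pdlim3 under robust shrinkage only. Myl2, Nrap, Ckm and Myot gained one, and the fixed replicate block changed the calls of Myl2 and Nrap, the random block those of Nrap and Myot, and neither that of another of the 41 genes. Sign changes among genes were limited to Tpm1 (-0.12 to 0.025 with libraries or litters left out), Tpm3 (-0.033 to 0.15, and -0.027 with probes averaged) and Ldb3 (-0.075 to 0.047, and -0.070 with probes averaged). Among pairs, Myl1 over Myl4 (-0.60) and Myh1 over Myh7 (-0.019) reversed with probes averaged. With libraries or litters left out, Tnnc2 over Tnnc1 ranged over -0.20 to 0.17, Tnni2 over Tnni1 over -0.28 to 0.0060 and Myh1 over Myh7 over -0.0095 to 0.14. The causes were not tested. Leaving out a litter leaves 2 libraries per tissue, and without detection values little can be said of dim probes such as that of Neb.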
